A study of Arabidopsis thaliana with 12 samples.

Results

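Among the genes that the array's annotation knows only by a locus tag, 50 read highest in nuclei of the suspensor, the stalk that ties the early Arabidopsis embryo to its mother tissue. They were selected on measured values: a gene entered if its lowest suspensor array lay above its highest value on the 6 arrays of proembryo and whole-embryo nuclei, if its suspensor mean was at least 8 on the log2(intensity + 16) scale, and if that mean exceeded the mean of the other 6 by at least 1. The 50 genes, with 1 probe set each, come from 11933 probe sets matched to a single locus-tag gene (11799 genes), a share of 0.419%. Over all 22746 non-control probe sets of the array, 101 met the same conditions on values (0.444%), and among the 1580 with another gene symbol 6 did (0.38%). The high suspensor level is therefore how the genes were found and is given below as a description, without a test. The levels in whole-embryo cells were not used to choose them.

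The 12 Affymetrix ATH1 arrays came from early embryos of the accession Col-0, with 3 arrays in each of 4 groups. Suspensor nuclei, proembryo nuclei and whole-embryo nuclei were taken at the stage of 2 to 16 cells, from ovules fixed in 0.1% paraformaldehyde, and were sorted by flow cytometry from marker lines, and the sources used here do not give their promoters. Whole-embryo cells are embryos of 8 to 32 cells that were squeezed out of unfixed ovules and washed, so stage, fixation and extraction cannot be told apart from the contrast of cells with nuclei. All plants grew under 16 h of light and 8 h of dark, all RNA passed through a single round of amplification, and replicates are called biological without a statement of whether they were separate harvests or sorts, so p-values cover only how far such samples spread, which may be technical. All values below are log2(intensity + 16), on which a level of 4 is an intensity of 0, and differences on this scale understate changes of dim genes.

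After the first division of the zygote, the upper daughter founds the proembryo, the source of nearly the whole later plant, and the lower one founds the suspensor. Suspensor cells divide few times, push the embryo into the endosperm, pass nutrients and growth regulators to it, and are removed by cell death later on. Early embryo RNA is also prone to carry RNA of the surrounding endosperm and seed coat, since each embryo is minute and lies inside them.

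The annotation allowed only a thin check of the labelled tissues. None of 7 listed suspensor markers has a probe set named here (0 of 7). BBM, whose product is a regulator able to induce embryos from other tissue and the 1 of 7 proembryo markers measured, read 6.92, 7.12 and 6.53 in suspensor nuclei, against 8.17, 7.71 and 7.84 in proembryo nuclei. The summed intensity of 3 of 10 endosperm markers was 227 to 387 in suspensor nuclei, 149 to 227 in proembryo nuclei, 165 to 227 in whole-embryo nuclei and 239 to 258 in cells. BAN, an enzyme of tannin synthesis and the 1 of 11 seed coat markers measured, ran at 7828 to 11449 intensity units in suspensor nuclei, 4435 to 7835 in proembryo nuclei, 6403 to 7493 in whole-embryo nuclei and 4780 to 16697 in cells. The summed intensity of 4 of 8 pollen markers was 2201 to 3385 in suspensor nuclei, 814 to 4563 in proembryo nuclei, 1800 to 2078 in whole-embryo nuclei and 522 to 695 in cells. That of 3 of 7 egg cell and synergid markers was 128 to 185 in suspensor nuclei, 135 to 332 in proembryo nuclei, 221 to 304 in whole-embryo nuclei and 44.1 to 93.6 in cells. No probe set on any array was at an intensity of 0, so a value above 0 does not show that a marker was detected. The pollen marker ANX1, for example, read 4.07 to 4.20 in whole-embryo nuclei, near the floor of the scale. The part of RNA from these other cells in the results below was not tested.

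On the scale of the rule, the suspensor mean exceeded the mean of the other nuclei by 1.00 to 2.73 log2 units over the 50 genes, with a median of 1.33, which is a ratio of 2.52. In 10 genes the difference was at least 2 and in 20 at least 1.5. The SD of the 3 suspensor arrays had a median of 0.371 and a range of 0.0677 to 0.802. The rule asks for 3 high suspensor arrays and so favours a small spread, which is therefore no sign of reproducibility. Among the suspensor arrays, replicate 1 was the lowest for 20 genes and the highest for 15, replicate 2 for 13 and 15, and replicate 3 for 17 and 20. The hybridisation controls, added in fixed amount, stood at 11.41, 13.00 and 13.89 on suspensor replicates 1, 2 and 3, against 11.67 to 12.65 on proembryo nuclei and 11.84 to 12.95 on whole-embryo nuclei. A sign of RNA integrity is the log2 ratio of the 3′ to the 5′ probe sets of actin. It was 6.25, 4.82 and 4.79 on suspensor replicates 1, 2 and 3. The ratio was 5.53 to 6.66 in proembryo nuclei, 5.67 to 6.17 in whole-embryo nuclei and 6.13 to 6.95 in cells. Suspensor replicates 2 and 3 thus lay below every other array. Pearson's r of suspensor replicate 1 was 0.902 and 0.868 with replicates 2 and 3, against 0.894 to 0.933 with the 6 other nuclei arrays. The part of these in the suspensor differences was not tested. Leaving out a suspensor array loosens the rule. The number of genes that meet it was 83, 66 and 69 without suspensor replicates 1, 2 and 3, which included 45, 43 and 45 of the 50.

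**Figure D1:**
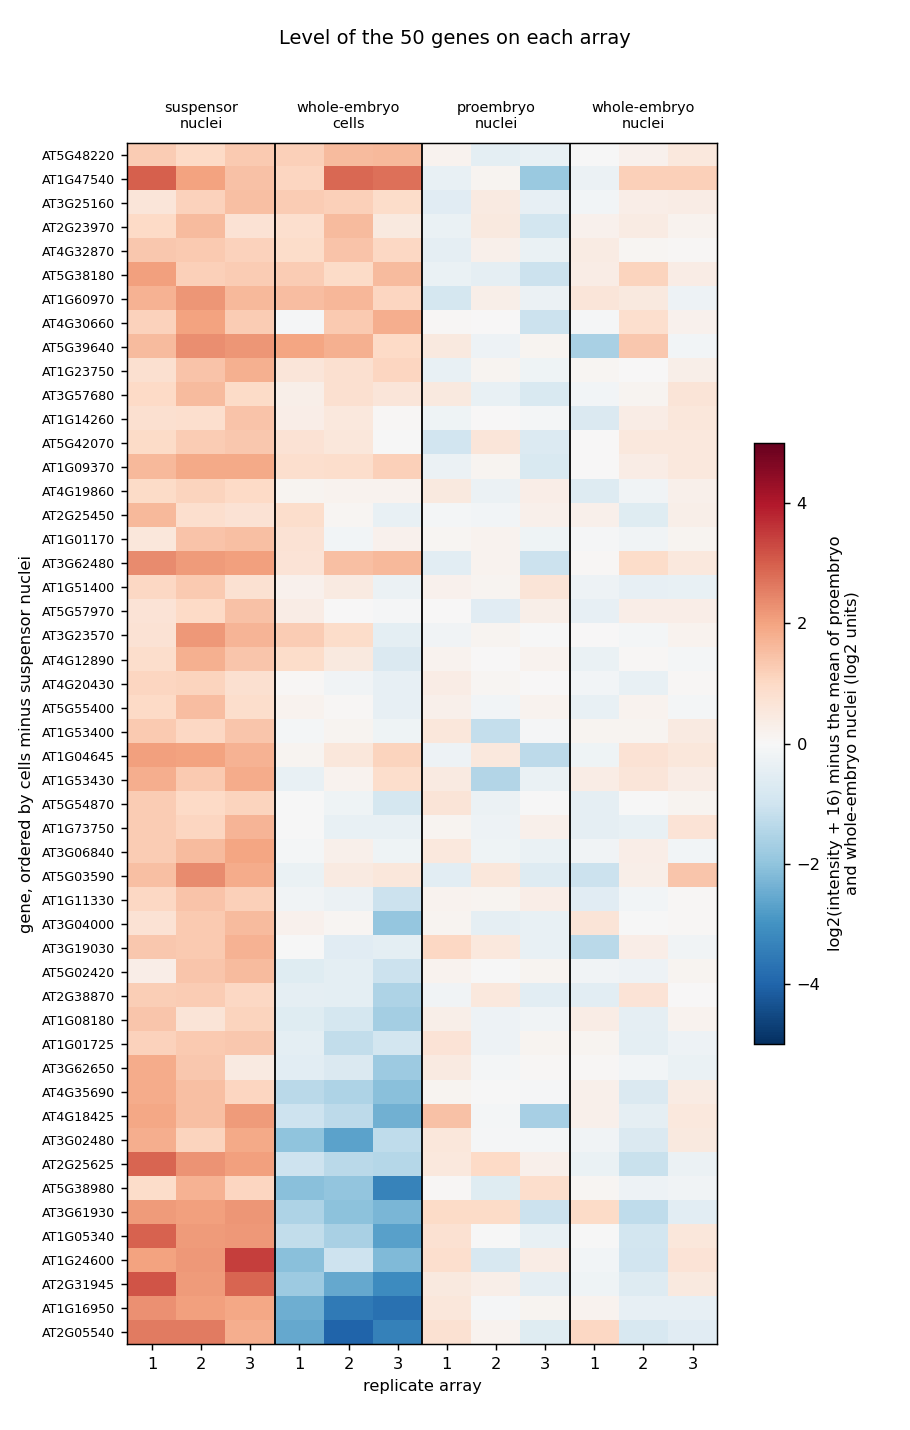
Level of each of the 50 genes (rows) on each of the 12 arrays (columns, replicates 1 to 3 of suspensor nuclei, whole-embryo cells, proembryo nuclei and whole-embryo nuclei), as log2(intensity + 16) minus the gene's mean over the 6 arrays of proembryo and whole-embryo nuclei. Rows are ordered by cells minus suspensor nuclei, which runs between 0.28 at the top and -5.65 at the bottom, and the suspensor columns are red throughout because the genes were chosen so.

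The limits of the rule cut through a continuous range. Just inside the limit on the difference lay AT4G20430 (1.00), AT1G14260 (1.03) and AT1G51400 (1.03), and just outside it AT1G05790 (0.9999), AT1G72060 (0.9847) and AT3G57790 (0.9813). On the suspensor mean, AT1G73750 (8.00), AT1G14260 (8.06) and AT2G25625 (8.12) were the last inside, and AT1G01240 (7.96), AT5G14860 (7.96) and AT5G65250 (7.93) the first outside. The gap between the lowest suspensor array and the highest other nuclei array was 0.01 for AT3G62650 and 0.03 for both AT5G38980 and AT4G18425, while AT4G14840 (-0.04), AT1G62510 (-0.05) and AT4G17370 (-0.08) missed it.

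The 50 genes lie on all 5 chromosomes, with 17 on chromosome 1, 6 on 2, 10 on 3, 7 on 4 and 10 on 5, and no 2 of them are neighbours in the gene table (0 adjacent pairs). The closest pair, AT1G53400 and AT1G53430, has 3 genes between. By biotype, 49 are protein-coding and AT3G62480 is a pseudogene. The tables used here give no product names. The protein families below are general knowledge of these loci, stated as background, and were available for 33 of the 50.

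Secreted and wall proteins made up 5 of these, and they split in the cells. AT1G04645, of the S1 family of small secreted proteins first known from pollen self-incompatibility in poppy, read 13.41, 13.37 and 13.10 in suspensor nuclei, against 11.11, 11.90 and 10.05 in proembryo nuclei and 11.16, 12.09 and 11.94 in whole-embryo nuclei. AT1G09370, of the family that inhibits pectin methylesterases and invertases, read 12.98, 13.26 and 13.27 in suspensor nuclei, against 11.08, 11.49 and 10.60 in proembryo nuclei and 11.37, 11.73 and 11.87 in whole-embryo nuclei. For both genes every suspensor array was at least 1 log2 unit above all 6 others (gaps of 1.01 and 1.104). Whole-embryo cells read 11.49, 11.94 and 12.49 for AT1G04645, overlapping the other nuclei. For AT1G09370 they read 12.20, 12.26 and 12.55, above all 6 of those arrays and below all 3 of the suspensor, and it was the 1 gene of the 50 placed so.

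AT1G47540 encodes a scorpion toxin-like knottin, a small cysteine-rich peptide of a class that includes protease inhibitors. It stood at 10.73, 9.75 and 9.22 in suspensor nuclei, against 7.35, 7.89 and 5.90 in proembryo nuclei and 7.44, 8.93 and 8.95 in whole-embryo nuclei. The cells, at 8.80, 10.60 and 10.50, overlapped the suspensor arrays and, on replicate 1, the whole-embryo nuclei. AT5G38180, of the lipid transfer protein and seed albumin family, showed the same overlaps, with 11.37, 10.54 and 10.63 in suspensor nuclei, against 9.01, 8.90 and 8.25 in proembryo nuclei and 9.70, 10.46 and 9.72 in whole-embryo nuclei. Its cells read 10.61, 10.29 and 10.93, among the suspensor arrays but for replicate 2, which lay below them.

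The fifth, the glycine-rich protein gene AT2G05540, was the opposite. Suspensor nuclei read 11.30, 11.29 and 10.50, against 9.47, 8.88 and 8.07 in proembryo nuclei and 9.71, 7.90 and 8.12 in whole-embryo nuclei. In cells it read only 6.15, 4.68 and 5.32, below every nuclei array and under the median of each cell array, with the lowest near the floor of 4. Its mean difference of cells minus suspensor nuclei, -5.65, is the lowest of the 50, while the other 4 genes of the group lay between -1.32 (AT1G04645) and 0.07 (AT1G47540).

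**Figure D2:**
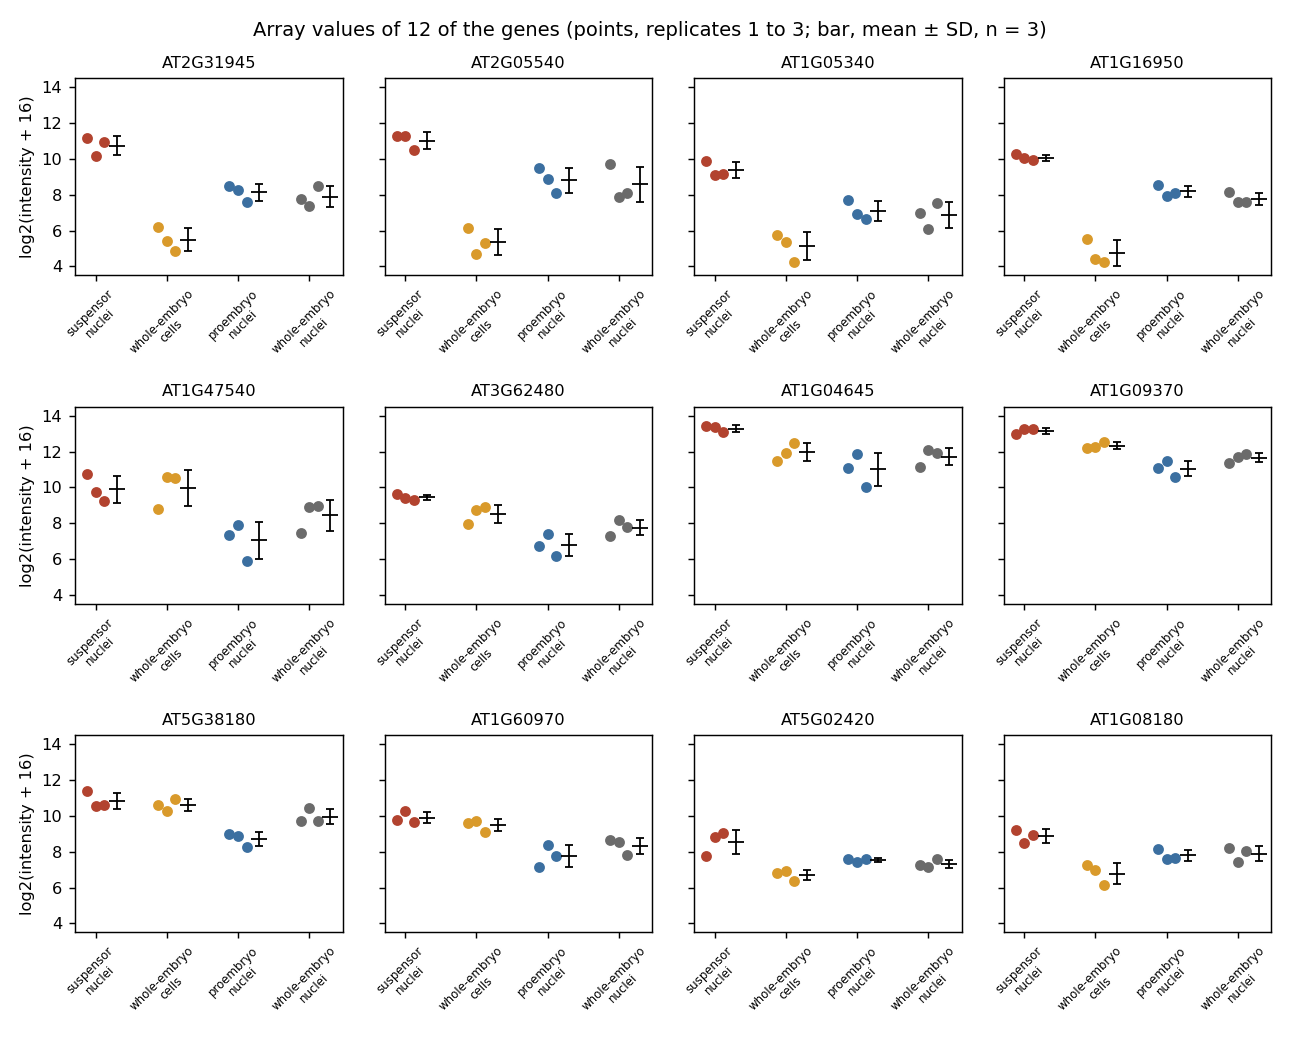
Array values of 12 of the genes on the log2(intensity + 16) scale, with points for replicates 1 to 3 and a bar for the mean ± SD (n = 3). The cells lie below every nuclei array for AT2G31945, AT2G05540, AT1G05340, AT1G16950, AT5G02420 and AT1G08180, and reach the suspensor arrays for AT1G47540, AT5G38180 and AT1G60970.

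Small stress-associated proteins showed the same split. AT1G05340 encodes a cysteine-rich transmembrane module protein, a family induced by many stresses. It read 9.91, 9.13 and 9.16 in suspensor nuclei, against 7.73, 6.94 and 6.63 in proembryo nuclei and 6.97, 6.08 and 7.55 in whole-embryo nuclei, and 5.76, 5.35 and 4.27 in cells. AT3G02480, a late embryogenesis abundant protein of the kind that accumulates in drying tissue, read 8.95, 8.26 and 9.05 in suspensor nuclei, against 7.71, 7.08 and 7.04 in proembryo nuclei and 6.97, 6.40 and 7.62 in whole-embryo nuclei, and 5.14, 4.47 and 5.88 in cells. For both, the cells lay below all 9 nuclei arrays. AT4G30660, a small hydrophobic membrane peptide of the family responsive to low temperature and salt, averaged 10.08 ± 0.477 in suspensor nuclei, 8.28 ± 0.648 in proembryo nuclei and 8.94 ± 0.464 in whole-embryo nuclei (SD, n = 3 each). Its cells averaged 9.64 ± 0.961 (SD, n = 3) and overlapped every group of nuclei.

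Of 4 genes for membranes and the cytoskeleton, AT1G60970 encodes the zeta subunit of the coatomer, the coat of vesicles that move between Golgi and endoplasmic reticulum. Suspensor nuclei read 9.80, 10.26 and 9.65, against 7.18, 8.35 and 7.77 in proembryo nuclei and 8.66, 8.53 and 7.81 in whole-embryo nuclei. AT3G25160, of the receptor family that returns resident proteins to the endoplasmic reticulum, read 8.18, 8.72 and 9.08 in suspensor nuclei, against 6.98, 8.00 and 7.17 in proembryo nuclei and 7.43, 7.90 and 7.92 in whole-embryo nuclei. In cells these genes of the early secretory route read 9.60, 9.73 and 9.12 and 8.84, 8.75 and 8.50, above all 6 arrays of the other nuclei and reaching the suspensor arrays. AT4G18425, a membrane protein of the DUF679 family, read 9.998, 9.56 and 10.18 in suspensor nuclei, against 9.53, 7.95 and 6.38 in proembryo nuclei and 8.31, 7.61 and 8.57 in whole-embryo nuclei. Proembryo replicate 1 all but met the suspensor there, and cells read 7.03, 6.75 and 5.64. AT5G55400, a fimbrin, which bundles actin filaments, averaged 9.22 ± 0.358 in suspensor nuclei, 8.19 ± 0.207 in proembryo nuclei and 7.99 ± 0.275 in whole-embryo nuclei (SD, n = 3 each), and its cells, 8.02 ± 0.316, overlapped the other nuclei.

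Cell surface and proteolysis genes had differences of 1.00 to 1.65. The leucine-rich repeat receptor-like kinase AT1G53430 averaged 8.40 ± 0.295 in suspensor nuclei, 6.31 ± 0.976 in proembryo nuclei and 7.20 ± 0.129 in whole-embryo nuclei (SD, n = 3 each). The S-locus lectin receptor-like kinase AT1G11330 averaged 10.001 ± 0.202 in suspensor nuclei, 8.999 ± 0.0931 in proembryo nuclei and 8.57 ± 0.316 in whole-embryo nuclei. Both families span the plasma membrane and read signals outside the cell, and cells minus suspensor nuclei came to -1.43 for the first and -1.73 for the second. Among proteolysis genes, the potato type I protease inhibitor AT2G38870 read 8.98, 9.01 and 8.77 in suspensor nuclei, against 7.19 to 8.44 over the other 6 nuclei arrays. The carboxy-terminal processing peptidase AT3G57680 read 8.03, 8.63 and 8.00 in suspensor nuclei, against 6.27 to 7.70, and the subtilase AT4G20430 8.26, 8.27 and 7.99, against 6.79 to 7.53. The differences of these 3 genes were 1.18, 1.19 and 1.00, the last being the smallest of the 50.

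Of the 6 genes for the cell cycle, DNA and ubiquitin, both AT5G02420 and AT1G08180 encode cyclin-dependent kinase inhibitors of the SIAMESE-RELATED family, which restrain mitosis and in leaves accompany endoreduplication. AT5G02420 read 7.78, 8.82 and 9.03 in suspensor nuclei, against 7.61, 7.42 and 7.57 in proembryo nuclei and 7.25, 7.17 and 7.59 in whole-embryo nuclei. Its suspensor replicate 1 cleared the proembryo nuclei by only 0.17. AT1G08180 read 9.23, 8.47 and 8.95 in suspensor nuclei, against 8.15, 7.61 and 7.66 in proembryo nuclei and 8.21, 7.41 and 8.04 in whole-embryo nuclei. Cells read 6.82, 6.93 and 6.37 for AT5G02420 and 7.23, 6.96 and 6.15 for AT1G08180, in each case below all 9 nuclei arrays. The other 4 were the OB-fold nucleic acid-binding protein AT1G23750 (a difference of 1.33), the ubiquitin domain protein AT1G53400 (1.24), the DNA glycosylase AT5G57970 (1.05), of a family that removes damaged bases, and the RING-type zinc finger protein AT1G14260 (1.03). Among these 4, the cells of AT1G23750, at 8.59, 8.79 and 9.04, lay above all 6 other nuclei arrays, and the cells of the rest overlapped them.

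Enzymes and other proteins of lipids, metabolism and plastids came to 10 genes, a group put together by hand, with differences of 1.03 to 1.91. AT5G03590, a lipase of the GDSL family, led them with 8.19, 9.02 and 8.54 in suspensor nuclei, against 6.14, 7.23 and 6.05 in proembryo nuclei and 5.61, 6.98 and 8.07 in whole-embryo nuclei. AT3G23570, of the dienelactone hydrolase family, read 8.84, 10.28 and 9.79 in suspensor nuclei, against 7.92 to 8.29 over the other 6 nuclei arrays. AT4G12890, a thiol reductase of the GILT family, known in mammals from lysosomes, read 12.02, 12.91 and 12.50 in suspensor nuclei, against 10.80 to 11.31 over the other 6. For these 3 genes the cells overlapped the other nuclei.

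AT4G32870, of a family with polyketide cyclase and lipid transport domains, read 11.62, 11.56 and 11.40 in suspensor nuclei, against 9.81, 10.53 and 9.92 in proembryo nuclei and 10.67, 10.35 and 10.32 in whole-embryo nuclei. AT5G48220, which carries the fold of indole-3-glycerol phosphate synthase, a step of tryptophan synthesis, read 8.97, 8.69 and 8.98 in suspensor nuclei, against 7.85, 7.19 and 7.31 in proembryo nuclei and 7.65, 7.92 and 8.20 in whole-embryo nuclei. Cells read 11.19, 11.70 and 11.29 for the first and 8.87, 9.27 and 9.32 for the second, above all 6 other nuclei arrays and overlapping those of the suspensor. Over the group as a whole, cells minus suspensor nuclei ran between -1.73 and 0.28, and none of the 10 lay 2 or more units below. The others were the phospholipase-like AT4G19860, the reductase AT3G04000, the amidotransferase-like AT2G23970, the dioxygenase AT2G25450, a gene of glucosinolate side-chain modification, and AT1G51400, a small photosystem II protein.

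The remaining 17 genes are given without a role, and they include the 2 largest differences. AT2G31945 read 11.18, 10.15 and 10.93 in suspensor nuclei, against 8.51, 8.29 and 7.59 in proembryo nuclei and 7.79, 7.39 and 8.52 in whole-embryo nuclei, a mean ratio of 6.66 to the other nuclei. AT1G24600 read 8.32, 8.46 and 9.77 in suspensor nuclei, against 7.15, 5.51 and 6.67 in proembryo nuclei and 6.18, 5.34 and 6.99 in whole-embryo nuclei. AT2G25625 read 8.61, 7.98 and 7.76 in suspensor nuclei, against 6.23, 6.70 and 5.96 in proembryo nuclei and 5.37, 4.61 and 5.44 in whole-embryo nuclei. These 3 lay at least 1.06 units clear of the other nuclei, with gaps of 1.63, 1.17 and 1.06. Their cells read 6.18, 5.44 and 4.86, then 4.20, 5.27 and 4.11, then 4.69, 4.38 and 4.28. All these cell values were under the median of their array, and the lowest were near the floor of the scale.

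AT3G61930 had the tightest suspensor arrays of the 50, at 9.15, 9.09 and 9.22, against 7.98, 7.97 and 5.95 in proembryo nuclei and 8.00, 5.75 and 6.51 in whole-embryo nuclei. AT1G16950 read 10.26, 10.05 and 9.92 in suspensor nuclei, against 8.55, 7.91 and 8.11 in proembryo nuclei and 8.16, 7.58 and 7.58 in whole-embryo nuclei. In cells they read 5.50, 4.99 and 4.75 and 5.56, 4.44 and 4.23, again below every nuclei array. The cells stayed nearer the suspensor for the pseudogene AT3G62480, below its arrays, and for AT5G39640, overlapping them. AT3G62480 read 9.62, 9.39 and 9.32 in suspensor nuclei, against 6.73, 7.42 and 6.18 in proembryo nuclei and 7.31, 8.16 and 7.79 in whole-embryo nuclei, with 7.95, 8.75 and 8.90 in cells. AT5G39640 read 8.38, 9.13 and 9.03 in suspensor nuclei, against 7.31, 6.56 and 6.93 in proembryo nuclei and 5.18, 8.17 and 6.68 in whole-embryo nuclei, with 8.78, 8.60 and 7.81 in cells. AT3G06840 (a difference of 1.61) had cells at 7.23, 7.59 and 7.10, within the range of the other nuclei. The other 9 genes without a role (AT4G35690, AT3G19030, AT1G73750, AT1G01725, AT5G38980, AT3G62650, AT5G42070, AT1G01170 and AT5G54870) had suspensor differences of 1.13 to 1.48. Cells minus suspensor nuclei in these 9 ran between -3.71 for AT5G38980 and -0.76 for AT5G42070.

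The level in whole-embryo cells was the one readout that took no part in choosing the genes. A whole embryo holds cells of both the suspensor and the proembryo, in shares that were not measured here. On bulk arrays fewer cells of a type and less RNA per cell cannot be told apart. By rank on each array, the median gene of the list lay at percentiles of 75.5, 76.1 and 70.5 among all probe sets in cells, against 89.8, 92.0 and 91.5 in suspensor nuclei, 75.3, 74.7 and 69.4 in proembryo nuclei, and 77.2, 76.6 and 76.2 in whole-embryo nuclei. Brightness of different probe sets does not compare amounts of different transcripts, and this rank only places the list on the arrays. Averaged over the 3 cell arrays for each gene, it ran between 10.4 for AT1G24600 and 99.1 for AT1G09370, with a median of 71.2.

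Within each gene, the cells fell into distinct layouts. All 3 cell arrays lay below every nuclei array for 12 of the 50 genes (24%), where this held for 10.3% of the 5307 probe sets with a suspensor mean of at least 8. The 12 are AT2G31945, AT1G24600, AT1G05340, AT2G05540, AT3G61930, AT1G16950, AT3G02480, AT4G35690, AT5G38980, AT3G62650, AT5G02420 and AT1G08180. Of the others, 32 overlapped the other nuclei and 6 lay wholly above them: AT1G60970, AT1G23750, AT4G32870, AT5G48220, AT3G25160 and AT1G09370. Set against the suspensor, for which the genes were chosen to be high, the cells were below all 3 arrays for 36 genes and overlapped them for 14 (22.6% of the same 5307 probe sets lay below). The cell mean was at least 2 log2 units under the suspensor mean for 15 genes and at least 3 under for 11, where 3% and 0.791% of those probe sets were, and it lay above the suspensor mean for 3 (AT5G48220, AT1G47540 and AT3G25160). The rule used every nuclei array, and the 5307 probe sets were not selected in that way. Nothing is therefore read from any of these shares, the 24% beside 10.3% included.

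Whole-embryo cells were then tested against whole-embryo nuclei with limma. The nuclei arrays had been used by the rule, as part of the low side, which leans these differences upward. Of the 50 genes, 43 passed the filter on dim probe sets, and 10 differed past the threshold: 4 higher in cells, where 2.71% of 11867 probe sets were called higher, and 6 lower, where 4.05% were called lower. With arrays centred on their medians the calls over all probe sets were 432 higher and 357 lower, in place of 322 and 481. The median difference of the 43 was 0.08, beside 0.01 over all probe sets tested, with 25 above and 18 below 0. Arrays of the groups did not overlap for 7 genes on the higher side (background 13.4%) and 10 on the lower side (background 15.2%). The 43 are not a fair sample of the 50, because a gene had to exceed the array median on at least 3 of the 6 arrays. Of them, 4 did so on no cell array and on all 3 arrays of whole-embryo nuclei, the group in which they were high, and these 4 (AT2G05540, AT1G16950, AT2G31945 and AT4G35690) are among the 6 lower calls. Without the filter all 50 were tested, and 1 was higher (AT5G48220) and 4 were lower (AT2G05540, AT1G16950, AT2G31945 and AT5G38980).

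On the lower side, the level of AT2G05540 in cells fell by 3.19 on the log2 scale (SE 0.502, with 3 arrays a group, limma adjusted p = 0.00438). AT1G16950 fell by 3.03 (SE 0.466, limma adjusted p = 0.00407), AT2G31945 fell by 2.40 (SE 0.428, limma adjusted p = 0.00778) and AT5G38980, with no role given, fell by 2.35 (SE 0.352, limma adjusted p = 0.0036). For AT5G38980 the cells read 6.93, 7.04 and 5.69, against 9.10, 8.78 and 8.84 in whole-embryo nuclei. The membrane protein AT4G18425 fell by 1.69 (SE 0.392, limma adjusted p = 0.0279). AT4G35690 fell by 1.63 (SE 0.431, limma adjusted p = 0.0451), but its limma adjusted p was 0.0904 without the filter. It read 5.91, 5.69 and 5.15 in cells, against 7.48, 6.53 and 7.64 in whole-embryo nuclei. All 6 had every cell array below every array of whole-embryo nuclei.

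On the higher side, AT5G48220 rose by 1.23 (SE 0.265, limma adjusted p = 0.0197) and the coatomer subunit AT1G60970 rose by 1.15 (SE 0.301, limma adjusted p = 0.0441). AT3G25160 rose by 0.95 (SE 0.257, limma adjusted p = 0.0496) and AT4G32870 rose by 0.95 (SE 0.257, limma adjusted p = 0.0497). The last 3 stand near the threshold and were past it in 5, 4 and 5 of 14 other settings, AT5G48220 in 11 of 14. Of the lower genes, AT5G38980 was past it in 14 of 14. AT2G05540, AT1G16950 and AT2G31945 were past it in all 11 settings in which they were tested. These do not include the settings without an array of whole-embryo nuclei, the group through which alone they met the filter. Without the filter their limma adjusted p was 0.0182, 0.0119 and 0.0288. AT4G18425 was past it in 8 of 14 and AT4G35690 in 6 of 11. AT5G39640 (1.72, SE 0.59, limma adjusted p = 0.104) and AT1G47540 (1.53, SE 0.511, limma adjusted p = 0.097) had larger estimates than the 4 genes that rose and did not pass. Neither did the kinase inhibitor genes AT1G08180 (-1.10, SE 0.345, limma adjusted p = 0.08) and AT5G02420 (-0.63, SE 0.299, limma adjusted p = 0.227).

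**Figure D3:**
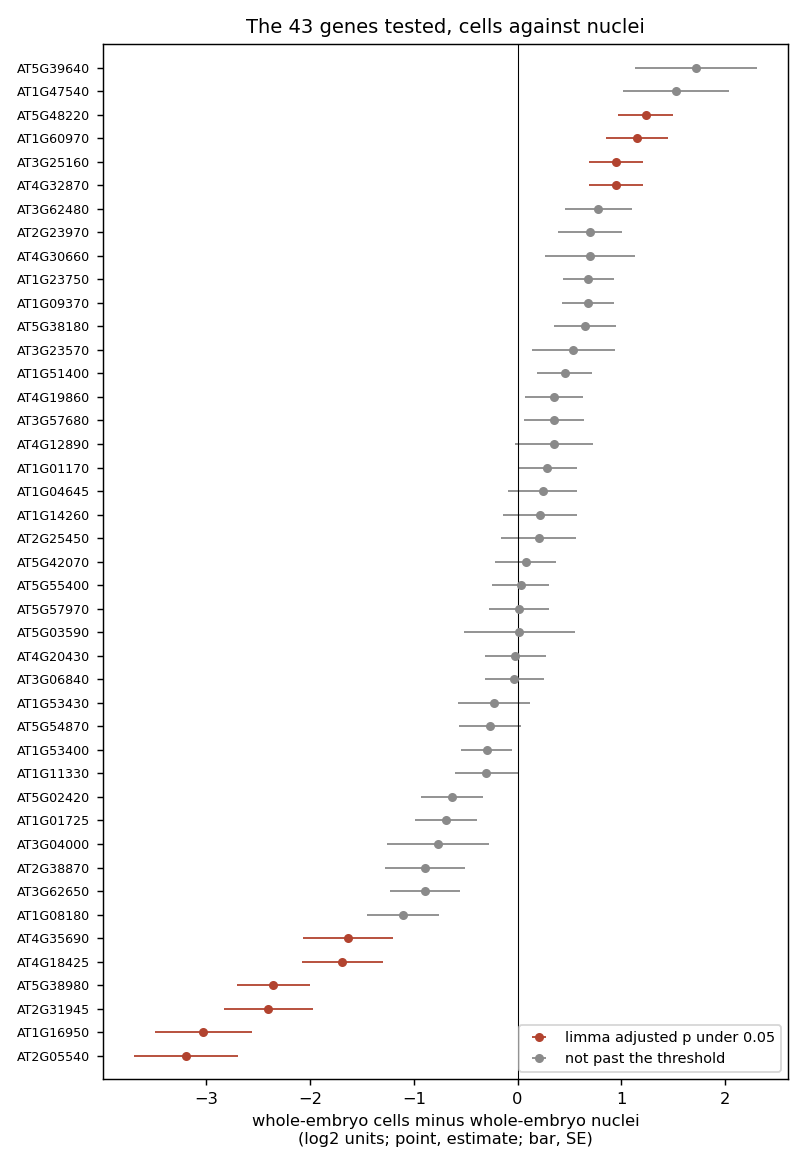
Difference of whole-embryo cells minus whole-embryo nuclei for the 43 genes tested, in log2 units, with the limma estimate as a point and its SE as a bar (n = 3 and 3). Red marks the 10 genes past the threshold, 4 above 0 and 6 below, between -3.19 for AT2G05540 and 1.23 for AT5G48220.

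The 7 genes left untested lay above the array median on fewer than 3 of the 6 arrays. Among them, AT1G24600 averaged 4.53 ± 0.642 in cells and 6.17 ± 0.823 in whole-embryo nuclei, AT1G05340 5.13 ± 0.773 and 6.86 ± 0.741, and AT3G61930 5.08 ± 0.382 and 6.75 ± 1.14 (SD, n = 3 each). The cell means of AT3G02480 and AT2G25625, 5.17 and 4.45, were also under those of whole-embryo nuclei, 6.997 and 5.14. AT3G19030 read 6.39 in cells and 6.34 in whole-embryo nuclei, and AT1G73750 6.41 and 6.62.

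The counts of calls depended on single arrays. Without whole-embryo nuclei replicate 1, 2 or 3 the counts were 0, 1 and 1 higher and 1 lower each time, with 39 genes tested. The 4 lower genes that passed the filter through whole-embryo nuclei alone were not tested in these settings, so they are no lost calls, and AT5G38980 stayed past the threshold in all 3 (limma adjusted p = 0.0258 to 0.0318). Without cells replicate 2 they were 0 higher and 4 lower. Some markers of other cells moved with this contrast. The summed pollen markers were lower in cells (522 to 695, against 1800 to 2078 in whole-embryo nuclei). Most of the signal came from the LAT52 homologue AT5G45880, at 9.33, 9.38 and 8.98 in cells, against 10.81, 10.79 and 11.02. The other pollen markers measured, ANX1, ANX2 and BUPS1, overlapped, so the lower sum rests on 1 probe set. The summed markers of egg cell and synergid were 44.1 to 93.6 in cells, against 221 to 304 in whole-embryo nuclei. Among them EC1.2 did not overlap, at 4.15 to 4.47 in cells, against 6.60 to 7.46, while EC1.5 and FER did. The endosperm sum was higher in cells, at 239 to 258, against 165 to 227 in whole-embryo nuclei. Of its markers AGL80 did not overlap, at 7.48 to 7.55 in cells, against 7.14 to 7.28, while AGL62 and IKU2 did. The actin ratio overlapped, at 6.13 to 6.95 in cells, against 5.67 to 6.17 in whole-embryo nuclei. The hybridisation controls read 11.57 to 11.83 in cells, against 11.84 to 12.95 in whole-embryo nuclei. The part of these in the differences was not tested.

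Proembryo nuclei were compared with whole-embryo nuclei, which by their label take in the suspensor's nuclei as well, in a share that was not measured. All 6 arrays had been used by the rule, which held both groups below the lowest suspensor array but not against each other. None of the 50 genes passed, and none of 12787 probe sets did (limma, background 0% in either direction). An unadjusted limma p under 0.05 was met by 7 of the 50 and 402 of the 12787. With an array left out, the 7 became 4 to 12. The 12787 were not selected by the rule, so nothing is read from these counts. The median difference of the 50 was 0.01, with 25 genes above and 25 below 0. The arrays did not overlap for 4 genes. On the higher side (3 genes, background 3.86%), AT2G25625 read 5.96 to 6.70 in proembryo nuclei, against 4.61 to 5.44 in whole-embryo nuclei. AT1G11330 read 8.93 to 9.11 in proembryo nuclei, against 8.22 to 8.84, and AT1G51400 9.97 to 10.49, against 9.45 to 9.60. On the lower side (1 gene, background 4.38%), AT5G38180 read 8.25 to 9.01 in proembryo nuclei, against 9.70 to 10.46 in whole-embryo nuclei.

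The last values set differences among the groups side by side. Across the 50 genes, the difference of whole-embryo minus proembryo nuclei correlated with the difference of cells minus suspensor nuclei at a Pearson's r of 0.54 and a Spearman's rho of 0.59. The 2 differences share no array, but 9 of the 12 arrays are those of the rule, the cells are set against the suspensor values that were selected, and genes are not independent replicates. The values are a description, and nothing is read from their distance to the 5307 probe sets with a suspensor mean of at least 8, which were not selected and where r was 0.0369. Of the 15 genes whose cells lay at least 2 units under the suspensor, 12 had a lower mean in whole-embryo than in proembryo nuclei. Of the 21 whose cell mean lay within 1 unit of the suspensor mean, 16 had a higher one. The median of whole-embryo minus proembryo nuclei was -0.23 in the first set and 0.36 in the second. Both sets are cut on the selected suspensor values and have no share over other probe sets beside them, so nothing is read from these counts. The first set holds 9 of the genes without a role and the second 4. Without whole-embryo nuclei replicate 2, r was 0.27.

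**Figure D4:**
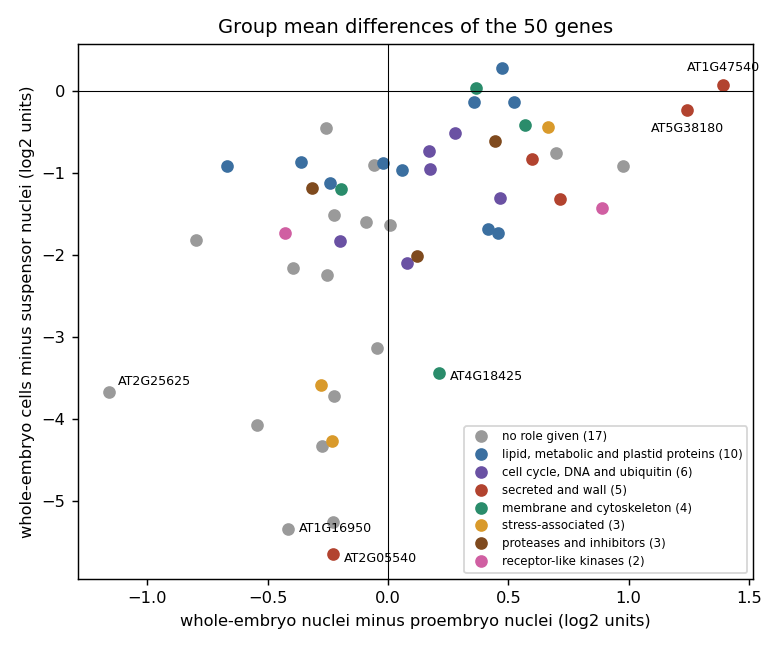
Whole-embryo nuclei minus proembryo nuclei (horizontal) and whole-embryo cells minus suspensor nuclei (vertical) for the 50 genes, as differences of group means in log2 units (n = 3 arrays per group), coloured by protein group. AT1G47540 (1.39 and 0.07) and AT5G38180 (1.24 and -0.24) lie at the upper right, and AT2G05540 (-0.23 and -5.65) and AT1G16950 (-0.42 and -5.33) at the bottom.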

How the data were processed

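RNA of early Arabidopsis embryos was measured on 12 ATH1 arrays. The authors deposited 1 intensity for each probe set of each array, on a linear scale. MAS5 and affy 1.32.1 are named in the submitters' processing notes, without role or order; the sources used here do not describe background correction or summarisation. The deposited scaling was kept: the mean after trimming 2% from each end was 200.02 on every array. Detection calls and depth were not used here, and 3 arrays per group limit the precision.

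Of 22746 non-control probe sets, 13513 had 1 gene in the platform annotation, 503 several and 8730 none here; 13436 matched a gene identifier in RefSeq's gene list (TAIR10.1), from which biotype and gene order were taken. Members were found by the stated rule on log2(intensity + 16). Members, protein groups and lists were chosen with earlier results of these data known. Of the 50 genes, 37 fall under the naming rule: the 20 largest differences, the 5 highest and 5 lowest percentiles in cells, the 5 largest calls in each direction, up to 3 leaders of each protein group, and the 3 just inside the limit on the difference or on the mean. The others are named to account for the list and were chosen after their values were seen. Protein groups were assigned by hand from general knowledge, after the members were seen, because the tables hold no product names. No sequences were used here, so promoter motifs were not searched.

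The tests ran in R 4.3.3 with lmFit and eBayes of limma 3.58.1, with a trend on intensity. They covered the probe sets that exceeded the array's median on 3 or more of the fitted arrays, with Benjamini-Hochberg adjustment and a threshold of 0.05: cells against whole-embryo nuclei on 6 arrays, and proembryo against whole-embryo nuclei on the 9 nuclei arrays. The fit was tested on simulated data with independent noise, which did not model how the genes were selected. Correlations across genes are descriptions. Tables and plots were made in Python 3.11.15 (pandas 2.3.3, matplotlib 3.10.9). Alternatives were pseudocounts of 4 and 64, no filter, median centring, quantile normalization, no trend, a replicate block, other arrays in the fit, and leaving out each array.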

Additional observations from a re-analysis of the deposited data

How the results depend on the processing

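In cells against whole-embryo nuclei, the main count of 4 genes higher became 1 with a pseudocount of 4, without the filter and without the intensity trend, and 2 with quantile normalization; over single arrays left out it ran between 0 and 5, and that of 6 lower between 1 and 8. Where an array of whole-embryo nuclei was left out, 39 genes were tested, since the filter still asked for 3 arrays, and 4 of the 6 lower genes were not among them. The median difference of the genes, 0.08, ran between -0.015 and 0.36 with arrays left out. Median centring put the median of all probe sets at 0.14, in place of 0.01, and left the counts at 4 and 6. All 10 called genes kept their direction in every setting in which they were tested. For proembryo against whole-embryo nuclei the count stayed at 0 in both directions under all alternatives run, and the median, 0.01, ran between -0.12 and 0.11 with arrays left out.

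With the replicate number as a block, 3 genes were higher and 5 lower in cells against nuclei, and 0 in proembryo against whole-embryo nuclei. Same-numbered arrays did not deviate together (correlations of 0.0873, -0.0176 and -0.105 for cells with nuclei, and of -0.119, -0.14 and 0.000389 for proembryo with whole-embryo nuclei), so the numbers were not taken to pair the samples.

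The number of genes that meet the rule, 50, was 52 with a pseudocount of 4, 47 with 64, 35 with median centring (34 of them among the 50) and 52 with quantile normalization; with an array left out it ran between 50 and 83. The median percentile in cells, 71.2, was 75.5 when ranked among locus-tag probe sets only and ran between 70.6 and 76.2 with a cell array left out. The next values were added after the data were seen: 12 to 16 genes had cells at least 2 units under the suspensor (main 15), and r across genes ran between 0.27 and 0.64. Causes of these changes were not tested. Dim genes near the floor are limited by signal over background.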
